A study of Mus musculus with 28 samples.

Results

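The corticotropin-releasing factor (CRF) system was examined in the amygdala of female mice that drank water, alcohol once or alcohol repeatedly. Its 6 genes, *Crh*, *Ucn*, *Ucn3*, *Crhr1*, *Crhr2* and *Crhbp*, were found by symbol in the GENCODE M21 annotation, out of 49477 genes counted in both deposited tables. The 28 mice were adult C57BL6/J females, bought at 7 weeks of age, singly housed with 2 drinking tubes for 28 days and killed on day 29. The Water group had water in both tubes (n = 10). The Acute Drinking group had 20% alcohol beside water on 1 day only, day 28 (n = 9), and the Chronic Drinking group on 14 alternate days (n = 9). Mice were run as 2 separate batches, with 4 Water, 4 Acute and 3 Chronic mice in the first and 6 Water, 5 Acute and 6 Chronic mice in the second. Each sample was a micropunch aimed to hold the central and basolateral nuclei together. A level is therefore an average over both nuclei, all their cell types and any neighbouring tissue in the punch.

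CRF, the product of *Crh*, is a neuropeptide best known for driving the pituitary stress response. In the amygdala it is made mainly by GABA neurons of the central nucleus, where it acts within the brain and is widely studied in anxiety and alcohol dependence. The urocortins, from *Ucn* and *Ucn3*, belong to the same peptide family. CRF acts chiefly through the receptor CRF1 (*Crhr1*), urocortin 1 binds both receptors, and urocortin 3 prefers CRF2 (*Crhr2*). Both receptors couple to Gs and raise cyclic AMP. The CRF-binding protein (*Crhbp*) is secreted and takes up free CRF and urocortin 1.

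All 6 genes stood on annotated chromosomes of GRCm38 as protein-coding genes, and none overlapped another annotated gene. *Crh* (ENSMUSG00000049796) lies on chr3:19693401-19695396, *Ucn* on chr5:31138063-31138829 and *Ucn3* on chr13:3940688-3945349, all on the minus strand. *Crhr1* lies on the plus strand at chr11:104132855-104175523. *Crhr2* at chr6:55090049-55133016 and *Crhbp* at chr13:95431371-95444924 lie on the minus strand.

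Related family members could in principle share reads, so the stretches where they are most alike are shown. The best ungapped match of 90 coding bases between *Crh* and *Ucn* fell near the 3′ end of both coding sequences, the part that encodes the mature peptides, with 56 identical bases (62.2%). The sequences are from the GENCODE M21 transcripts on GRCm38, chr3:19693971-19694060 for *Crh* and chr5:31138210-31138299 for *Ucn*, both on the minus strand. Capitals mark the bases that are the same in both.

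Crh: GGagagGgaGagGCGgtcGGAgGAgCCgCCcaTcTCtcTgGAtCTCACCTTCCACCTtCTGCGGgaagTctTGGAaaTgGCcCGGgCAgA
Ucn: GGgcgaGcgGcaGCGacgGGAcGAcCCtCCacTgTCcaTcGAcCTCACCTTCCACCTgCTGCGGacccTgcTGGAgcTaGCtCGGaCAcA

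The receptors were closer to each other. Their best 90 coding bases shared 78 (86.7%), again with shared bases in capitals. The *Crhr1* stretch spans an exon junction within chr11:104173357-104173649 on the plus strand, and the *Crhr2* stretch within chr6:55093033-55093313 on the minus strand.

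Crhr1: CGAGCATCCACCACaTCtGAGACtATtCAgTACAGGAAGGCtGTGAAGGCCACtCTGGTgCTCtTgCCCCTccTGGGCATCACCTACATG
Crhr2: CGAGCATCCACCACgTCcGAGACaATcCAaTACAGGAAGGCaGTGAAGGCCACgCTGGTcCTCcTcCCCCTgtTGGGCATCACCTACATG

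Even in these stretches the longest run of identical bases was 14 between *Crh* and *Ucn* and 17 between the receptors. The best match of *Ucn3* to *Crh* held 41 identical bases of 90 (45.6%), with no run above 3. Across whole transcripts, 0 of the 31-base words of the 6 genes occurred in another member or in any other gene of the annotation. Reads of the length used can therefore be assigned to 1 member at a time.

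Depth was even, with 20004380 to 22569562 counts per mouse. Values are given as CPM, a gene's counts scaled to the size of its library, after TMM normalization, which corrects that size for the composition of the library. A gene entered the tests if its mean over the 28 mice was at least 10 counts, which 16266 genes did, 5 of the 6 members among them. The 95% intervals of read counts cover counting error only.

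*Crhbp* was the most abundant member and *Ucn* was hardly present. Per kilobase of exon, which allows genes to be compared, the mean level over the 28 mice was 15.1 CPM for *Crhbp*, 5.18 for *Crh*, 4.83 for *Crhr1*, 0.920 for *Crhr2*, 0.859 for *Ucn3* and 0.0928 for *Ucn*. *Crhbp* was above *Crh* in 28 of 28 mice, and *Crhr1* above *Crhr2* in 28 of 28. *Crh* was above *Crhr1* in 18 of 28 mice only, so the levels of the ligand and its receptor did not separate. *Crhr2* was above *Ucn3* in 23 of 28 mice. Its place depends on the length used: the union of the exons of its 9 transcripts is 5115 bases, and with the median transcript of 1440 bases its level was 3.27 CPM per kilobase. The 28 of 28 for *Crhr1* above *Crhr2* holds for the union of exons, and not in every mouse with the median transcript. Among the genes tested, the level per kilobase of *Crhbp* stood at the 81.3rd percentile, that of *Crh* at the 56.3rd and that of *Crhr1* at the 54.4th.

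**Figure D1:**
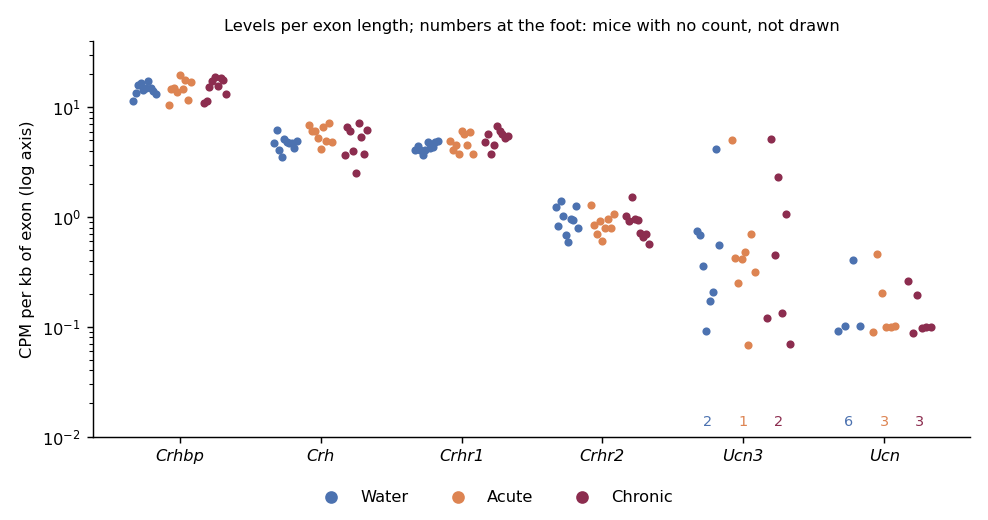
Level of the 6 genes in CPM per kilobase of exon, on a log axis, with 1 point per mouse coloured by group; the numbers at the foot count the mice with no read, which are not drawn. The lowest *Crhbp* value, 10.6, lies above the highest of any other gene, 7.24 for *Crh*, and *Ucn* is without a read in 12 of 28 mice.

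The ligands differed in how they could be judged. *Ucn*, which encodes urocortin 1, had 27 reads in all 28 mice together and no more than 5 in any mouse. The 10 Water mice held 7 reads (exact Poisson 95% interval 2.81 to 14.4), with 6 mice at 0 and a highest count of 4. The 9 Acute mice held 11 reads (5.49 to 19.7) and the 9 Chronic mice 9 reads (4.12 to 17.1), with 3 mice at 0 in each. These intervals overlap throughout. A count of 0 allows up to 3 reads, which is 0.130 to 0.155 CPM at the depths of these libraries. *Ucn* is therefore too low to judge any but a large difference between the groups, and how large was not computed. Exact permutation tests, described below, gave p = 0.435 in Acute against Water, 0.533 in Chronic against Water and 0.732 in Chronic against Acute.

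*Crh* had at least 67 reads in every mouse. Its CPM ran from 4.64 to 8.28 with a median of 6.27 in Water, from 5.48 to 9.56 with a median of 8.02 in Acute, and from 3.32 to 9.47 with a median of 7.03 in Chronic mice. The mean was 6.24 ± 0.955 (SD, n = 10) in Water, 7.66 ± 1.39 (SD, n = 9) in Acute and 6.69 ± 2.12 (SD, n = 9) in Chronic mice. The ranges of the 3 groups overlap, and the Chronic mice hold both the lowest value and one close to the highest. In the first batch the Acute mice had 7.02, 8.02, 8.07 and 9.19 CPM against 4.64, 5.44, 6.19 and 8.28 in Water. In the second batch they had 5.48, 6.39, 6.49, 8.68 and 9.56 CPM, while the 6 Water mice lay between 5.63 and 6.85. The coefficient of variation of *Crh* was 6.31% among Water, 23.5% among Acute and 35.6% among Chronic mice of the second batch, but 25.5%, 11% and 28.6% in the first, where Water and Acute mice stood in the opposite order. In the second batch 3 of the 6 Chronic mice were above and the other 3 below all 6 Water mice.

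*Ucn3*, which encodes urocortin 3, was high in 4 mice and low in the rest. In Water its CPM ran from 0 to 6.24 with a median of 0.421, in Acute from 0 to 7.46 with a median of 0.609, and in Chronic mice from 0 to 7.66 with a median of 0.198. There were 4 mice with clearly more reads than the others, namely Chronic mouse 38 with 176, Acute mouse 33 with 172 and, from the second batch, Water mouse 5 with 123 and Chronic mouse 2 with 69. Together they held 540 of the 762 *Ucn3* reads (70.9%). The other 24 mice had at most 31 reads, with a median of 7.0, and 5 of them had none. The SD of log2 CPM of *Ucn3* over the 28 mice, after removal of the batch means, was 1.84 and stood at the 99.7th percentile of the genes tested, for which the median SD was 0.14. That of *Crh* was 0.35, of *Crhr2* 0.32, of *Crhbp* 0.22 and of *Crhr1* 0.22.

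**Figure D2:**
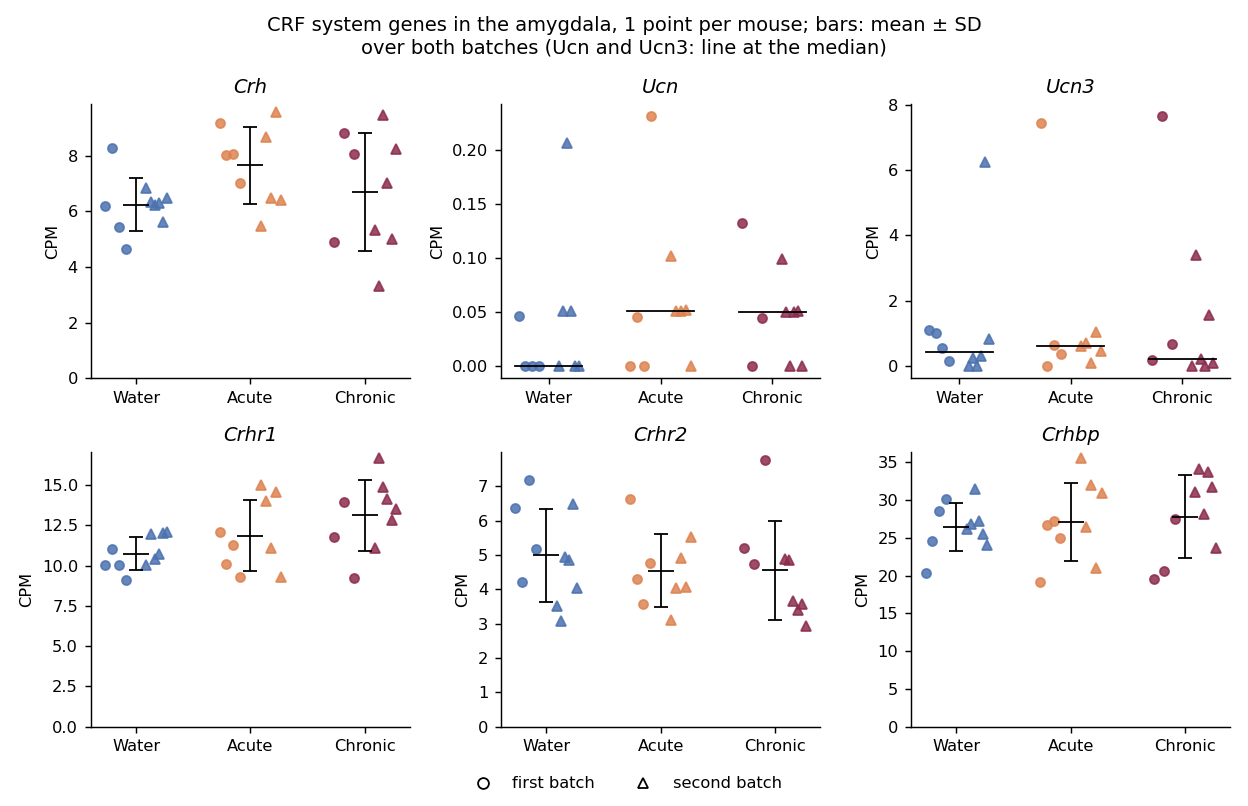
CPM of the 6 genes with 1 point per mouse, by drinking group, with circles for the first and triangles for the second batch; bars are the mean ± SD, and lines in the *Ucn* and *Ucn3* panels are medians. The groups overlap in every panel, the Chronic mice of the second batch sit mostly above the Water mice for *Crhr1*, and *Ucn3* is high in 4 mice.

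*Crhr1*, the receptor for CRF, had the narrowest spread in Water. Its CPM ran from 9.10 to 12.1 with a median of 10.6 in Water, from 9.28 to 15.0 with a median of 11.3 in Acute, and from 9.26 to 16.7 with a median of 13.5 in Chronic mice. The mean was 10.7 ± 1.02 (SD, n = 10) in Water, 11.9 ± 2.22 (SD, n = 9) in Acute and 13.1 ± 2.20 (SD, n = 9) in Chronic mice. The ranges overlap at their lower ends and part at their upper ends. In the second batch 5 of the 6 Chronic mice were above all 6 Water mice, and in the first batch 2 of the 3 Chronic mice were above all 4. Of the Acute mice, 3 of 5 in the second batch and 2 of 4 in the first were above every Water mouse of their batch.

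*Crhr2* and *Crhbp* had medians close to each other in the 3 groups. *Crhr2* ran from 3.06 to 7.18 CPM with a median of 4.91 in Water, from 3.10 to 6.63 with a median of 4.30 in Acute, and from 2.94 to 7.76 with a median of 4.74 in Chronic mice. *Crhbp* ran from 20.4 to 31.5 CPM with a median of 26.5 in Water, from 19.1 to 35.6 with a median of 26.7 in Acute, and from 19.6 to 34.2 with a median of 28.2 in Chronic mice. The groups overlap over most of their ranges for both genes.

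The first comparison asked what a single access to alcohol changed in these genes. Acute against Water was tested with the quasi-likelihood test of edgeR, in a model that held batch as a term, and p-values were adjusted by Benjamini-Hochberg over all 16266 genes with a threshold of 0.05. None of the 5 members tested was called, as against 0% of all genes. At an unadjusted p under 0.05 the count was 0 of 5 members, as against 9.52% of all genes. *Crh* had the largest ratio and the smallest p among the members, a log2 fold change of 0.29 ± 0.15 (SE; 95% interval -0.01 to 0.59), with p = 0.0573 and adjusted p = 0.535. It was above the Water mean in 8 of 9 Acute mice. The difference was 0.39 in the first batch alone and 0.22 in the second. Over 15 other settings the log2 fold change ran from 0.068, with central amygdala markers as a covariate (below), to 0.39. Of these 15 settings, 4 gave an unadjusted p under 0.05 (from 0.0130 to 0.0464, edgeR or DESeq2). The adjusted p ran from 0.426 to 0.931 in 14 of them and was left undefined by DESeq2 with batch as a covariate (p = 0.0503).

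An exact permutation test of *Crh*, 2-sided over the 32340 regroupings of the labels within batches, gave p = 0.0279 for this comparison. It was 1 of 18 such tests (6 genes in 3 comparisons, not adjusted), of which 2 had p under 0.05. *Crhr1* differed by 0.15 ± 0.087 (SE, edgeR; adjusted p = 0.595), *Crhr2* by -0.14 ± 0.15 (adjusted p = 0.796) and *Crhbp* by 0.036 ± 0.098 (adjusted p = 0.940). For *Crhbp* the interval of -0.16 to 0.24 covers ratios of 0.892 to 1.18. For *Ucn3* the log2 fold change of 0.042 had an SE of 0.92, so ratios between 0.279 and 3.8 were inside its interval and no size could be given.

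The second comparison set repeated access, which took in alcohol on day 28 as well, against water. None of the 5 members was called in Chronic against Water, as against 0.0184% of all genes (3 of 16266). At an unadjusted p under 0.05 the count was 1 of 5 members, as against 10.5% of all genes. That member was *Crhr1*, with a log2 fold change of 0.27 ± 0.087 (SE; 95% interval 0.09 to 0.45), a ratio of 1.21, p = 0.00401 and adjusted p = 0.243 (edgeR). It ranked 267th of all genes by p and was above the Water mean in 7 of 9 Chronic mice. The difference was 0.22 in the first batch alone (p = 0.14, edgeR) and 0.30 in the second (p = 0.0123, edgeR). The interaction of batch and group had p = 0.640 (edgeR). The exact permutation test within batches gave p = 0.00618 for *Crhr1*, the second of the 18 tests with p under 0.05. With each mouse left out in turn the log2 fold change ran from 0.23 to 0.32 and the adjusted p from 0.173 to 0.460, so the gene stayed short of the threshold in all 28 fits.

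*Crh*, which was highest in Acute mice, had a log2 fold change of 0.11 ± 0.15 (SE) in Chronic against Water (adjusted p = 0.850, edgeR), and 5 of 9 Chronic mice were above the Water mean. Over 15 other settings this fold change ran from -0.0086 to 0.24. *Crhr2* differed by -0.11 ± 0.15 (adjusted p = 0.837) and *Crhbp* by 0.041 ± 0.098 (adjusted p = 0.921). *Ucn3* differed by 0.42 ± 0.88 (adjusted p = 0.906), and the value rested on single mice: it was -0.42 without Chronic mouse 38, -0.027 without Chronic mouse 2 of the second batch and 1.88 without Water mouse 5 of the second batch. For *Crhbp* the first batch alone gave -0.20 and the second 0.18, and the interaction of batch and group had p = 0.0644 (edgeR; adjusted p = 0.831).

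The third comparison set the drinking groups against each other. Chronic against Acute shares its mice with both comparisons above. None of the 5 members was called, as against 0% of all genes, and 0 of 5 had an unadjusted p under 0.05, as against 4.44% of all genes. *Crhr1* had a log2 fold change of 0.12 ± 0.089 (SE; 95% interval -0.06 to 0.30) and *Crh* one of -0.19 ± 0.15 (-0.49 to 0.12), both with an adjusted p of 0.998 (edgeR). The difference of *Crhr1* from Water in Chronic mice was thus not shown to differ from that in Acute mice. In the test of the batch by drinking interaction, 0 of 5 members were called for Acute against Water, as against 0% of all genes, and 0 of 5 for Chronic against Water, as against 0.00615%. At an unadjusted p under 0.05 these counts were 0 of 5 as well, as against 4.13% and 6.15% of all genes.

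**Figure D3:**
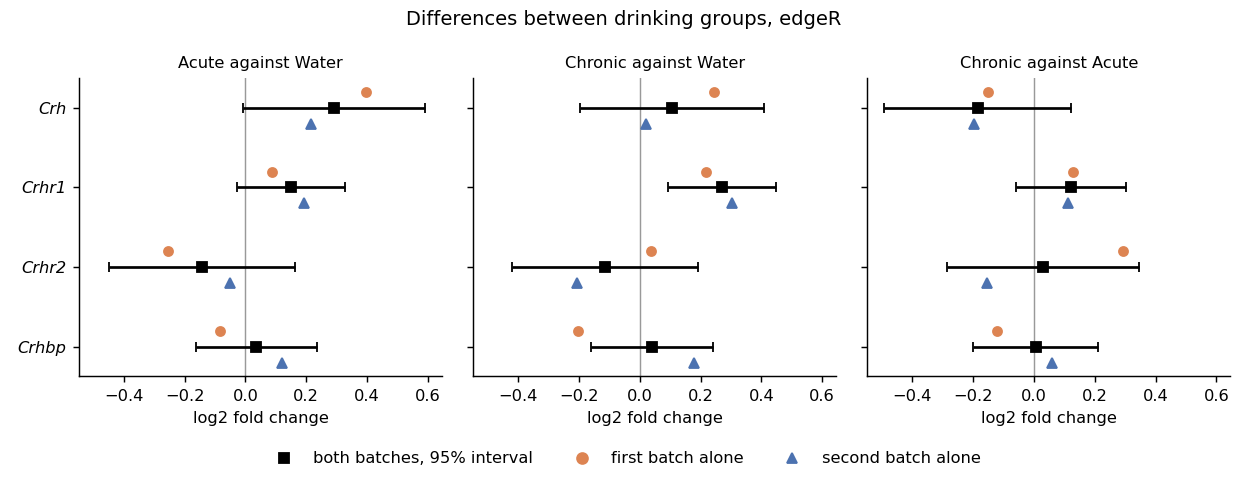
Log2 fold change of *Crh*, *Crhr1*, *Crhr2* and *Crhbp* in the 3 comparisons, with squares and 95% intervals for both batches together and circles and triangles for each batch alone; *Ucn3* is left out because its intervals run from -1.84 to 1.93 in Acute against Water. The interval of *Crhr1* in Chronic against Water, 0.09 to 0.45, is the one that lies wholly on one side of 0.

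A punch of the whole amygdala can hold more or less of each nucleus, and marker genes of regions and cell types were followed beside the members. A marker score is the mean log2 CPM of a list of genes after removal of the batch means. In bulk tissue, fewer cells of a type and less RNA per cell cannot be told apart. The 6 central amygdala markers (*Prkcd*, *Calcrl*, *Tac2*, *Nts*, *Pdyn*, *Isl1*) summed to 95.4 to 294 CPM. The 8 markers of pallial excitatory neurons, the main cells of the basolateral nucleus but not particular to it, summed to 1118 to 2185 CPM. The 8 striatum markers summed to 411 to 1626 CPM. None of 7 lists in 3 comparisons differed between groups at an adjusted p under 0.05, and 1 of the 21 did at an unadjusted p (exact permutation test).

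*Crh* varied across mice together with the central amygdala score. Over the 28 mice Pearson's r was 0.853 and Spearman's rho 0.778 (permutation p = 1e-05, the smallest that 100000 resamples can give, and p = 2e-05; adjusted over 45 pairs p = 0.0003 and 0.00045). The r was 0.850 in the first and 0.860 in the second batch, and 0.749 without the 2 mice farthest from the median of *Crh*. This score was itself 0.26 higher in Acute than in Water mice (exact permutation p = 0.0947, adjusted p = 0.522), and the summed level of its 6 genes was 173 to 294 CPM in Acute, 113 to 236 in Water and 95.4 to 262 in Chronic mice. With the score as a covariate in the edgeR fit, the log2 fold change of *Crh* in Acute against Water was 0.068 (p = 0.473; adjusted p = 0.899) in place of 0.29. The score holds *Nts*, which encodes neurotensin and had itself a log2 fold change of 0.55 ± 0.13 (SE) in Acute against Water (p = 0.000239, adjusted p = 0.194, edgeR). The paper lists *Nts* among its genes changed in Acute mice. With a score of the other 5 genes the log2 fold change of *Crh* was 0.13 (p = 0.170, adjusted p = 0.718, edgeR). That score still held *Pdyn*, the gene most like *Crh* (r = 0.879). *Pdyn* had a log2 fold change of 0.31 ± 0.20 (SE) in Acute against Water (adjusted p = 0.642, edgeR). A covariate made of genes that vary with *Crh* can lower its fold change whatever the reason. That reason was not tested. The list of GABA interneuron markers held *Gad1*, *Gad2*, *Slc32a1*, *Lhx6*, *Sst*, *Npy*, *Pvalb* and *Vip*. Of these, *Gad1*, *Gad2* and *Slc32a1* mark GABA neurons of every kind, so the score is not one of interneurons alone. It was 0.13 higher in Acute mice (exact p = 0.0516, adjusted p = 0.522). With this GABA score as the covariate the log2 fold change of *Crh* in Acute against Water was 0.086 (edgeR p = 0.533), and with that of choroid plexus markers 0.28 (edgeR p = 0.0507).

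*Crhr1* in Chronic against Water was fitted with the same covariates. Its log2 fold change was 0.27 with the central amygdala score, 0.28 with the pallial score, 0.25 with the choroid plexus score and 0.21 with the GABA score (edgeR p = 0.00379, 0.00112, 0.00413 and 0.0128; adjusted p from 0.145 to 0.243). The score of the GABA list was the one with which *Crhr1* went along most closely, with r = 0.518 and rho = 0.504 (permutation p = 0.00356 and 0.00691; adjusted p = 0.0160 and 0.0389). Within batches r was 0.709 and 0.414, and without the 2 mice farthest from the median 0.529. In Acute against Water, *Crhr1* had a log2 fold change of 0.15, and of 0.044 with the GABA score as a covariate (edgeR p = 0.614).

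*Crhbp* and *Crhr2* went along with other lists. *Crhbp* was higher in mice with a higher pallial score, with r = 0.719 and rho = 0.641 (permutation p = 2e-05 and 0.00054; adjusted p = 0.0003 and 0.0061), and lower in mice with a higher central amygdala score, with r = -0.593 and rho = -0.551 (p = 0.00106 and 0.00374; adjusted p = 0.00596 and 0.0240). Without the 2 mice farthest from the median of *Crhbp* these r were 0.610 and -0.491. Within batches they were 0.814 and 0.640 for the pallial score, and -0.531 and -0.641 for the central amygdala score. *Crhr2* was higher in mice with a higher choroid plexus score, with r = 0.684 and rho = 0.718 (both p = 2e-05; adjusted p = 0.0003 and 0.00045), 0.901 and 0.690 within the batches and 0.639 without the 2 farthest mice. The 8 choroid plexus markers summed to 122 to 6581 CPM, a wide range found in all 3 groups.

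**Figure D4:**
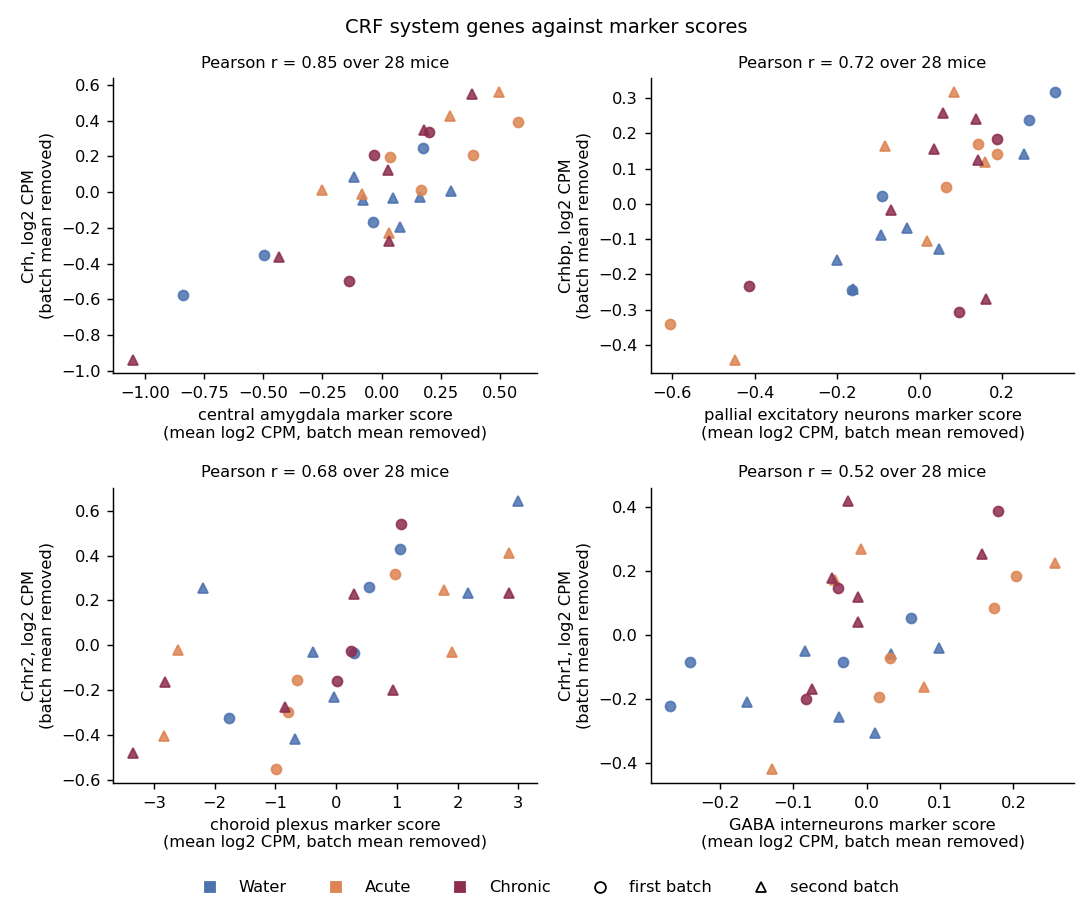
Log2 CPM of 4 members against the marker score each went along with, both with batch means removed and 1 point per mouse, coloured by group, with circles for the first and triangles for the second batch. *Crh* follows the central amygdala score most closely (r = 0.85), with Acute and Chronic mice at the upper end and Chronic and Water mice at the lower end, while *Crhr1* follows the GABA score more loosely (r = 0.52).

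Pairs of members showed less. Of the 10 pairs among the 5 members tested, 1 had an adjusted p under 0.05, *Ucn3* with *Crhr1* (r = 0.483, rho = 0.490, permutation p = 0.0108 for both, adjusted p = 0.0373 and 0.0487). Within batches this r was 0.655 and 0.398, and without the 2 mice farthest from the median of *Ucn3* 0.476. *Crh* and *Crhbp* had r = -0.453 and rho = -0.415 (p = 0.0171 and 0.0319, adjusted p = 0.0514 and 0.0957), and r = -0.319 without the 2 farthest mice. *Crh* and *Crhr1*, the ligand and its receptor, had r = 0.129 and rho = 0.300 (permutation p = 0.523 and 0.126, adjusted p = 0.636 and 0.227), with r of 0.420 and -0.0102 within batches and 0.375 without the 2 mice farthest from the median of *Crh*.

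The genes whose levels were most like each member's over the 28 mice were found among all genes tested by Pearson's r on log2 CPM with batch means removed. The median r over all genes lay between -0.0148 and 0.0034 for the 5 members. *Crh* was closest to *Pdyn* (r = 0.879), which encodes prodynorphin and is one of the central amygdala markers above, then to *Grid1* (0.843) and *P2ry1* (0.840). *Crhr1* was closest to *Tunar* (0.858), *Zdhhc22* (0.848) and *Cd83* (0.814), *Crhr2* to *Slc16a12* (0.894), *Pon3* (0.889) and *Itpripl1* (0.867), and *Crhbp* to *Kcnj3* (0.863), *Fam19a2* (0.862) and *Pld3* (0.846).

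*Ucn3* was closest to *Gprin2* (r = 0.870), *Irs4* (0.869) and *Igsf1* (0.844). These 3 were chosen for their correlation, so their values in the 4 mice with the most *Ucn3* reads are a description. *Gprin2* was at 5.64 to 6.79 CPM in the 4 mice and at 3.63 to 6.51 CPM in the 24 others. *Irs4* was at 6.48 to 14.8 CPM against 1.65 to 7.66, and *Igsf1* at 15.2 to 20.4 CPM against 6.70 to 13.0.

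The 5 markers of the medial amygdala and hypothalamus did not all follow *Ucn3*. *Otp* was at 0.737 to 1.83 CPM in the 4 mice against a median of 0.189 and a highest value of 0.874 in the others, and *Sim1* at 0.254 to 0.544 CPM against a median of 0.0458 and a highest value of 0.303. *Lhx5* was at 0 to 0.495 CPM against a highest value of 0.306, *Cyp19a1* at 0.198 to 1.04 CPM against 0.554, and *Esr1* at 10.1 to 16.2 CPM against 14.8. All but *Esr1* were below the count minimum, and the ranges overlapped for all 5. These 4 mice came from all 3 groups and both batches. The part of these tissues in the *Ucn3* values was not tested.

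**Figure D5:**
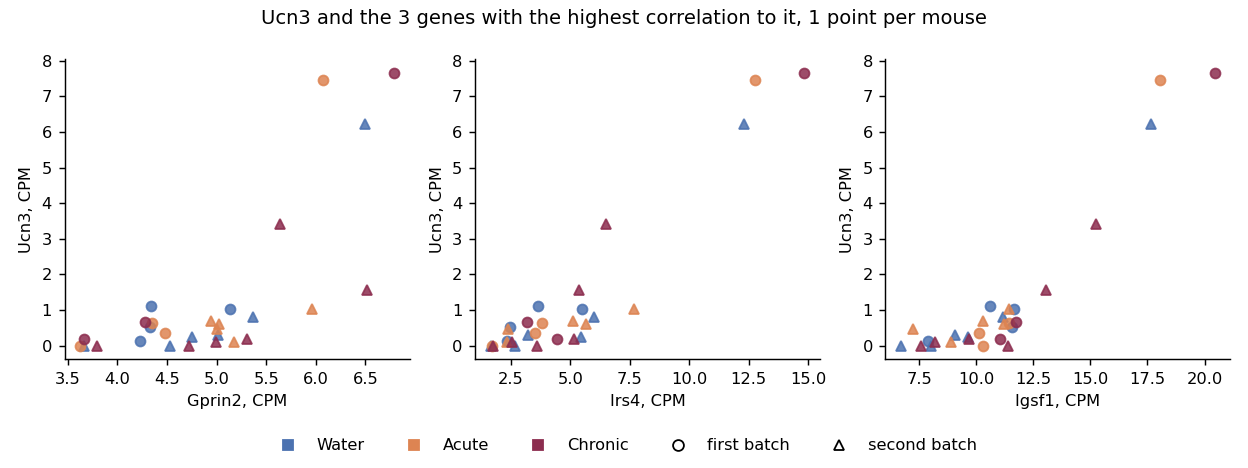
CPM of *Ucn3* against CPM of *Gprin2*, *Irs4* and *Igsf1*, with 1 point per mouse coloured by group, circles for the first and triangles for the second batch. The 4 mice high in *Ucn3* (2 Chronic, 1 Acute and 1 Water) stand to the right of all others for *Igsf1*.

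The genes that carry the receptors' signal onward were given as a list of 29, from the G proteins and adenylyl cyclases to protein kinase A, the CREB family, phospholipase C, arrestins and receptor kinases. All 29 were tested and none was called in any comparison. In Acute against Water, 4 were higher and 1 lower at an unadjusted p under 0.05, and the median log2 fold change of the list was 0.024, beside 0.0011 over all genes. These 5 of 29 stood beside 9.52% of all genes. The 2 with the smallest p were *Prkaca*, the catalytic subunit alpha of protein kinase A (0.09 ± 0.034 SE, adjusted p = 0.462, edgeR), and *Prkar1b*, a regulatory subunit (0.09 ± 0.038 SE, adjusted p = 0.477). In Chronic against Water, 4 were higher and 2 lower, 6 of 29 beside 10.5% of all genes, with a median of 0.017 beside 0.0022. There the 2 were *Crem*, a cyclic AMP-responsive transcription factor of the CREB family (-0.16 ± 0.055 SE, adjusted p = 0.290, edgeR), and again *Prkaca* (0.08 ± 0.034 SE, adjusted p = 0.367). In Chronic against Acute, 1 was higher and 3 lower, 4 of 29 beside 4.44% of all genes, with a median of -0.0044 beside -0.00089. These 4, named after their values were seen, were *Crem* (-0.19 ± 0.056 SE, unadjusted p = 0.00181), *Adcy6*, an adenylyl cyclase (0.14), *Prkar2b*, a regulatory subunit of protein kinase A (-0.10), and *Plcb1*, a phospholipase C (-0.10), each with an adjusted p of 0.998 (edgeR).

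Other genes of the stress axis were given as a list of 14, of which 9 were tested. *Ucn2*, which encodes urocortin 2, had a mean of 1.07 counts, *Oxt* 0.500, *Avp* 7.43 and *Avpr1a* 9.75, all below the minimum, and *Mc4r* was listed for the second batch only and was not compared here. None of the 9 was called. In Acute against Water, 0 were higher and 1 lower at an unadjusted p under 0.05, 1 of 9 beside 9.52% of all genes, with a median log2 fold change of 0.052 beside 0.0011. The smallest p were those of *Nr3c1*, the glucocorticoid receptor (-0.08 ± 0.036 SE, adjusted p = 0.501, edgeR), and *Sgk1*, a kinase induced by glucocorticoids (0.18 ± 0.093 SE, adjusted p = 0.532). In Chronic against Water, 0 were higher and 0 lower, beside 10.5% of all genes, with a median of -0.0058 beside 0.0022, and the smallest p were those of *Nr3c2*, the mineralocorticoid receptor (-0.08 ± 0.038 SE, adjusted p = 0.495), and *Adcyap1r1*, the PACAP receptor (0.07 ± 0.039 SE, adjusted p = 0.506). In Chronic against Acute, 0 were higher and 1 lower, 1 of 9 beside 4.44% of all genes, with a median of 0.030 beside -0.00089. The 1 gene, named after its value was seen, was *Sgk1* (-0.26 ± 0.095 SE, unadjusted p = 0.00994, adjusted p = 0.998, edgeR).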

How the data were processed

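Per the file headers and the methods, the authors quantified paired-end reads of amygdala RNA against GRCm38 with Salmon (version 0.14.1 in the submitters' processing notes), summarized them by gene and deposited whole-number counts, 1 table per batch, before batch adjustment. Both tables were merged by Ensembl gene ID, version number dropped (50051 and 51073 genes, 49477 shared). A mean of at least 10 counts over 28 mice was required. The main test was edgeR 4.0.16 (R 4.3.3; TMM, quasi-likelihood, batch as covariate, all 3 groups in 1 fit), with Benjamini-Hochberg adjustment over 16266 genes. It was tested on simulated data. Log2 CPM used a prior count of 2. Alternatives used DESeq2 1.42.0, limma 3.58.1, ComBat-seq (sva 3.50.0), other filters and covariates, each batch alone and each mouse left out. The scores of pallial, GABA and choroid plexus markers, and that of central amygdala minus *Nts*, were added as covariates after seeing the data. Members and lists were chosen with earlier results of these data known. Marker lists covered central amygdala, pallial excitatory neurons, GABA interneurons, medial amygdala and hypothalamus, striatum, choroid plexus and vascular smooth muscle. Genes beside the members were named by fixed rules: per pathway list the 2 smallest p in each comparison with Water (those of Chronic against Acute were named after their values were seen), and per member the 3 highest correlations. Levels of the medial amygdala markers by mouse were looked at after seeing the *Ucn3* values. No libraries of one group agreed within sampling noise. The first batch's identifiers are those of GENCODE M21, and the second batch's come in part from another release.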

Additional observations from a re-analysis of the deposited data

How the results depend on the processing

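No member was called under any of 15 other settings or with any of the 28 mice left out. Of all genes with an adjusted p, these settings called 0 to 0.234% in Acute against Water, 0 to 1.05% in Chronic against Water and 0 to 0.00615% in Chronic against Acute, and the fits with a mouse left out at most 0.0369%. The highest shares came with ComBat-seq and DESeq2 (30 genes in Acute and 88 in Chronic against Water, against 0 and 3 in the main test), and DESeq2 with batch as a covariate called 9 and 38. DESeq2 with batch gave an adjusted p in the comparisons with Water to *Crhbp* alone, and ComBat-seq with DESeq2 in Chronic against Water to *Crhbp* alone and in Acute against Water to all but *Ucn3*, so the members left undefined could not be called there. Of 219 log2 fold changes under other settings 26 turned their sign, and of 420 with a mouse left out 28 did, none from or to a called value. *Crhr1* in Chronic against Water kept its direction throughout (0.21 to 0.30, unadjusted p under 0.05 in 14 of 15 settings, the exception being the first batch alone), as did *Crh* in Acute against Water (0.068 to 0.39). The cause of each change was not tested.

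For *Ucn3*, Acute against Water was -0.17 with DESeq2, -0.19 with limma-voom, -0.30 with ComBat-seq, -1.12 in the second batch alone, -0.19, -0.71 and -1.11 with the central amygdala, pallial and GABA scores, -0.089 with the central amygdala score minus *Nts*, and -1.10 to 1.39 with a mouse left out. Chronic against Water was -0.53 in the second batch alone, -0.29 with the GABA score and -0.42 to 1.88 with a mouse left out, and Chronic against Acute -0.67 to 1.63. The highest values of *Ucn3* under the other settings were 1.60 in Acute against Water and 2.02 in Chronic against Water. For *Crhbp*, the first batch alone gave -0.084 (Acute against Water), -0.20 (Chronic against Water) and -0.12 (Chronic against Acute). Chronic against Acute was also -0.045 with limma-voom, -0.0061 with only the 2 groups, -0.10, -0.053 and -0.059 with the central amygdala, pallial and GABA scores, -0.097 with the central amygdala score minus *Nts*, and -0.047 to 0.053 with a mouse left out, and Acute against Water -0.0078 to 0.085. For *Crhr2*, Chronic against Water was 0.038 in the first batch alone. Chronic against Acute was -0.16 in the second, -0.028 and -0.037 with the central amygdala and GABA scores, -0.019 with the central amygdala score minus *Nts* and -0.076 to 0.097 with a mouse left out. For *Crh*, Chronic against Acute was 0.0079 with the central amygdala score and Chronic against Water -0.0086 with the GABA score. With a minimum mean of 100 counts *Crhr2* and *Ucn3* gave no value.

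With the replicate number as a block, 0 members were called (of all genes 0, 3 and 0 in the 3 comparisons), and *Crhr1* in Chronic against Water was 0.27 (adjusted p = 0.279, edgeR). In the second batch, same-numbered mice of different groups had correlations of their deviations from -0.35 to 0.34, with 4 of 16 pairs above 0.1. For mice of different numbers they ran from -0.36 to 0.42, with 26 of 80 pairs above 0.1. Same-numbered mice were thus no more alike by this measure, and what the number stands for was not tested. Depth limits *Ucn*, and spread between mice limits *Ucn3*.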

Other observations

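Of the 45 pairs, 13 had an adjusted p of r under 0.05, and those not given above follow. *Ucn3* was lower in mice with a higher pallial score (r = -0.676, rho = -0.631, permutation p = 0.00017 and 0.00032, adjusted p = 0.00191 and 0.0048), with r of -0.873 and -0.497 within batches and -0.612 without the 2 mice farthest from the median of *Ucn3*. It was higher in mice with more *Esr1*, the one marker of the medial amygdala and hypothalamus above the count minimum (r = 0.485, rho = 0.361, p = 0.0104 and 0.0626, adjusted p = 0.0373 and 0.146). Without the 2 farthest mice r was 0.246, so its size depended in part on them. Within batches r was 0.407 and 0.535.

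Other lists went along with *Crh*. *Crh* was higher in mice with a higher striatum score (r = 0.632, rho = 0.564, permutation p = 0.00029 and 0.00272, adjusted p = 0.00261 and 0.0204 over 45 pairs) and with a higher GABA score (r = 0.616, rho = 0.605, p = 0.00061 and 0.00118, adjusted p = 0.0046 and 0.0106). Without the 2 mice farthest from the median of *Crh* these r were 0.510 and 0.638, and within batches 0.537 and 0.718 for striatum and 0.820 and 0.465 for GABA. The striatum score was 0.40 lower in Chronic than in Acute mice (exact permutation p = 0.0400, adjusted p = 0.522).

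*Crhbp* was lower in mice with a higher score of vascular smooth muscle (r = -0.600, rho = -0.473, permutation p = 0.00100 and 0.0156, adjusted p = 0.00596 and 0.0639), for which 3 of 5 markers were tested. Within batches r was -0.826 and -0.346, and without the 2 farthest mice -0.476. *Crhbp* was also lower with a higher striatum score (r = -0.558, rho = -0.506, p = 0.00285 and 0.00798, adjusted p = 0.014 and 0.0399), with r of -0.565 and -0.555 within batches and -0.537 without the 2 farthest mice. With the GABA score r was -0.496 and rho -0.384 (p = 0.0103 and 0.0536, adjusted p = 0.0373 and 0.134), with r of -0.567 and -0.432 within batches and -0.312 without the 2 farthest mice. The level of *Esr1* passed no test between groups (exact permutation, adjusted p from 0.522 to 0.869).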
